A study of Gallus gallus with 4 samples.

Results

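Parental DT40 cells, a B lymphoma line from the bursa of a chicken, were examined for a response to auxin on 1 array of cells harvested 6 h after 500 µM indole-3-acetic acid (IAA) and on 1 array of untreated cells. These 2 parental arrays were chosen by their sample titles from the 4 arrays of the series. The other 2 arrays, from a stable DT40 line that expresses OsTIR1, an F-box auxin receptor protein of rice, without and with 500 µM IAA, served only to show which parental array stood apart. The same serum-containing medium and a temperature of 38.5 °C were used throughout. IAA was added from an ethanol stock, and the labels do not say whether the control culture received ethanol. Each group is 1 culture on 1 array, so no difference below has a replicate check or a p-value, and 1 array a group sets the precision. All arrays came from 1 slide and 1 scan, so a culture and its place on the slide cannot be told apart.

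Auxin is the growth hormone of plants. It binds an F-box protein of the TIR1 family and so marks transcriptional repressors for destruction, after which auxin response genes are transcribed. Animal cells have no TIR1, and the study asked whether auxin nonetheless induces particular genes in them. Indole compounds are also known as ligands of the aryl hydrocarbon receptor, a transcription factor of animals that induces cytochrome P450 genes.

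Of 42034 probes, 19492 were well above background on both parental arrays by the scanner software's flag, and 19436 of these on all 4 arrays. Levels are log2 intensities minus the 75th percentile of the array, and differences are IAA minus untreated on that scale. A RefSeq table gave 51 probes a gene symbol, for 50 genes, and 244 probes carry 118 chicken microRNA names. No gene name was found for the remaining 41739. The cell type could not be checked, since none of 13 B cell markers has a named probe. Of 21 markers of other cell types, 3 have one. RAG1 of early lymphocytes, TLR4 of macrophages and VTG2 of liver were not well above background on either parental array. None of 5 aryl hydrocarbon receptor targets listed, CYP1A4 and CYP1A5 among them, has a named probe. Large differences crowded in 2 adjacent parts of 16 of the array surface, so results that rest on these crowded parts are given with and without them. They are the 2 parts with the highest share of large differences on these same arrays. Leaving them out therefore lowers that share by construction and is no independent check.

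Of the 22 named genes measured in both parental cultures, 21 differed by less than 1.5-fold with IAA, and CHRM4 was lower. AVPR2, measured in the untreated culture only, has a bound past 1.5-fold that leaves out spot error, given below. Of the 50 genes, 22 were well above background on both parental arrays, 1 on the untreated array only and 27 on neither. Of the 22, 11 were higher and 11 lower by any amount, and 17 differed by under 0.15. The median difference was -0.01, the same to 2 decimals as over all 19492 probes. With a fold of 1.5 as the size rule, 1 of the 22 was lower and 0 were higher, where 1.39% and 0.518% of all measured probes were. At 2-fold it was 0 of 22 either way. The even split into higher and lower and the count under 0.15 depend on the scaling. With each array scaled to its median instead, the median difference of the 22 was 0.15, beside 0.16 over all measured probes. CHRM4, at -0.81, was then still the only gene past 1.5-fold, and the largest other difference was 0.29. Each 95% interval below comes from the software's error estimates of the 2 spots and covers no variation between cultures. It is not a measured spread. In the brightest 4873 probes its median half-width was 0.40, while the middle 95% of their differences ran from -0.17 to 0.17.

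Among growth and transcription genes, JUN, the AP-1 transcription factor gene, read 2832 intensity units without IAA and 2914 with it. Its difference was 0.11 (-0.29 to 0.51). CDK6, a cell cycle kinase gene, read 3560 and 3411 units, a difference of 0.01 (-0.39 to 0.41) after scaling. TGFB2, a growth factor gene, read 238 and 193 units, a difference of -0.23 (-0.63 to 0.17), the largest of the 22 after CHRM4. Both OsTIR1 arrays read TGFB2 higher, at 438 and 368 units. NRF1, which activates genes of mitochondrial function, read 400 and 372 units and differed by -0.03. TENM2, a teneurin adhesion gene, read 246 and 203 units and differed by -0.21 (-0.61 to 0.20), against 963 and 906 units on the OsTIR1 arrays. MYC, FOS and EGR1 of the growth list have no named probe.

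The chaperone gene HSPA2 of the HSP70 family had 2 probes at different places on the array. The brighter one read 5095 and 4731 units, a difference of -0.04 (-0.44 to 0.36), and the other 2271 and 2163 units, a difference of 0.00 (-0.40 to 0.40). DNAJC27, a small GTPase gene with a J domain, read 195 and 198 units and differed by 0.09. EXOSC10, the nuclear exosome RNase gene, was the brightest named gene at 11295 and 9880 units and differed by -0.12 (-0.52 to 0.28). PDCD2, a ribosome assembly factor gene, differed by 0.04 (-0.36 to 0.44). GPHN, the gephyrin gene, LPIN2, a phosphatidate phosphatase gene, and ARFGAP2, a regulator of vesicle coats, differed by -0.03, -0.06 and 0.07. GJA4, a gap junction gene, CKMT1B, a mitochondrial creatine kinase gene, and TRIM41, a ubiquitin ligase gene, differed by 0.04, -0.10 and 0.04. HSPA5, HSPA8, HMOX1 and HSP90AA1 have no named probe.

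**Figure D1:**
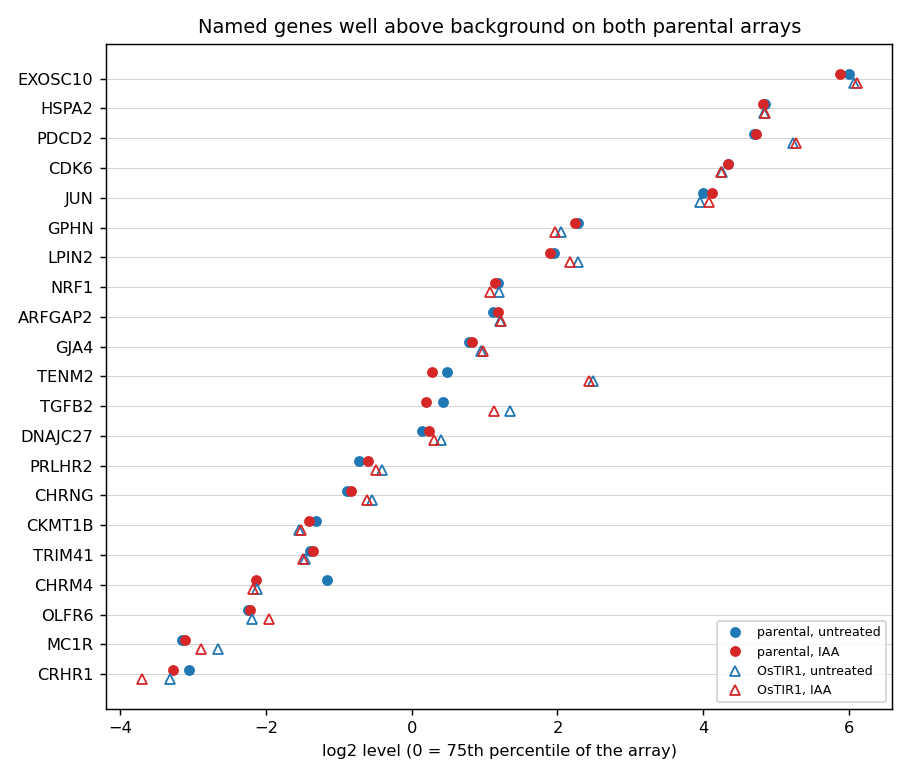
Log2 level of 21 of the 22 named genes well above background on both parental arrays, 0 being the 75th percentile of the array; each mark is 1 array, filled circles for parental DT40 and open triangles for the OsTIR1 line, blue without and red with IAA. The red and blue circles of 20 genes differ by at most 0.23, and CHRM4 lies at -1.17 without and -2.14 with IAA.

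Receptor genes were dim. CHRM4, a muscarinic acetylcholine receptor gene, read 78.7 units in the untreated parental culture and 38.2 with IAA, a difference of -0.97 (-1.44 to -0.51). The OsTIR1 arrays read it at 39.4 and 37.3 units, so the untreated parental array was the high one and the IAA array lay with the reference arrays. Its spot lies in a crowded part of the surface, and the part of its place in the difference was not tested. With normexp background correction, which adds an offset of 50 units to each spot, the difference was -0.40, under 1.5-fold. AVPR2, a vasopressin receptor gene in the same part, was well above background on the untreated parental array only, at 21.2 units. It was there at least 1.94-fold above the lowest signal that counts as measured on the IAA array. This bound leaves out spot error. The OsTIR1 arrays read AVPR2 at 1.34 and 1.45 units, not well above background, so the untreated parental array was the high one here too. The interval from the error estimates of the 2 AVPR2 spots, -5.90 to -0.17, reaches differences under 1.5-fold.

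The other receptor genes measured showed smaller differences. CHRNG, an acetylcholine receptor subunit gene, read 95.2 and 94.5 units and differed by 0.06 (-0.36 to 0.49). PRLHR2 read 107 and 111 units and differed by 0.13, the highest of the 22. OLFR6 read 37.3 and 36.0 units and differed by 0.02 (-0.51 to 0.55). MC1R, the melanocortin receptor gene of pigment cells, read 19.9 and 19.4 units, and CRHR1, a corticotropin-releasing hormone receptor gene, 21.2 and 17.3. Their intervals, -0.72 to 0.78 and -0.97 to 0.53, would not show a 1.5-fold difference. The 27 genes on neither parental array include receptor genes such as MC2R, NPY1R and BDKRB2.

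Over all 19492 measured probes, 98.1% differed by less than 1.5-fold and the middle 95% of differences ran from -0.46 to 0.32. At least 2-fold apart were 92 probes (0.472%), 27 higher (0.139%) and 65 lower (0.333%) with IAA. At least 1.5-fold apart were 372 (1.91%), 101 higher and 271 lower. The excess of lower probes remained under some scalings and not under others. Median scaling moved the median of all differences from -0.01 to 0.16 and gave 38 higher and 39 lower at 2-fold, and 246 and 137 at 1.5-fold. Quantile normalization gave 153 and 178 at 1.5-fold. Normexp correction gave 5 higher and 2 lower at 2-fold, and 21 and 10 at 1.5-fold. The dimmest 4873 probes spread most, with an SD of 0.32, against 0.09 in the brightest 4873. They held 17 of the 27 probes at least 2-fold higher and 56 of the 65 lower. The median intensity of the 92 was 49.4 units without and 24.3 with IAA, against 221 and 211 for all measured probes.

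**Figure D2:**
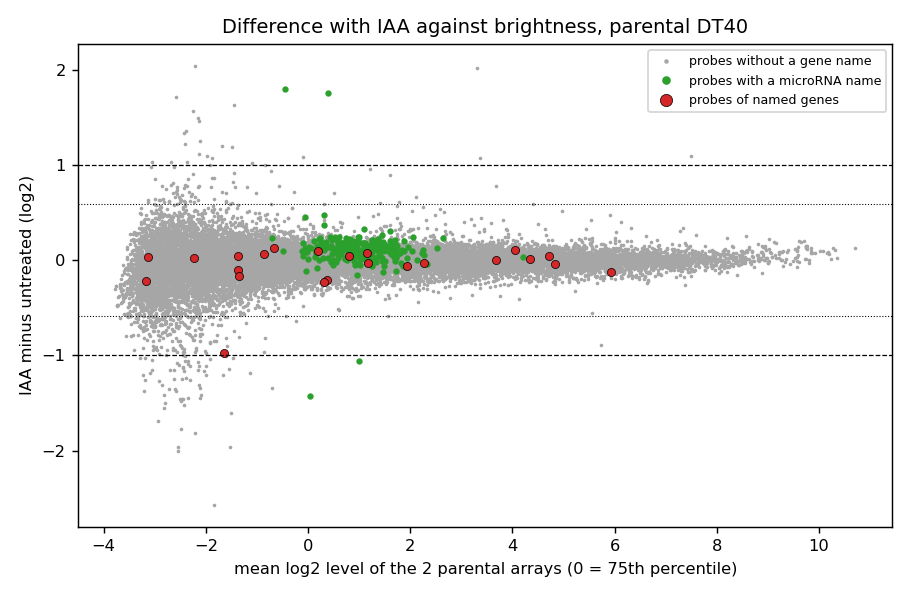
Difference with IAA (log2, IAA minus untreated) against the mean level of the 2 parental arrays for the 19492 probes well above background on both; grey points are unnamed probes, green ones microRNA probes and red ones named genes, and dashed and dotted lines mark 2-fold and 1.5-fold. The spread narrows with brightness, and 4 microRNA probes and CHRM4 stand off the named points.

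MicroRNAs are short RNAs cut from hairpin precursors that repress matching mRNAs. The files do not say whether a probe reads the precursor or the mature form. All 244 microRNA probes were well above background on all 4 arrays, those of tissues other than lymphocytes included. The 12 probes of muscle microRNAs (mir-1, mir-133 and mir-206) ran from 0.68 to 1.78 without IAA, the 2 of the liver microRNA mir-122a lay at 0.07 and 0.46, and the 6 of the neural microRNAs mir-9 and mir-124 ran from -0.12 to 0.51. The 14 probes of the blood cell microRNAs mir-155, mir-181, mir-142 and mir-223 ran from -0.20 to 1.89. The levels of the blood cell microRNAs thus overlapped those of the muscle, liver and neural ones. These families were picked after their values were seen. The brightest microRNA probe, at 4.20 without and 4.23 with IAA, belongs to mir-302c, a microRNA known from embryonic stem cells. Its other 3 probes lay at 4.01, 0.71 and 0.53 without IAA, so the 4 fell into 2 pairs of close levels. Probes of the same name thus need not share a level, and whether the 2 pairs read the same RNA is not given.

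With IAA, 218 of the 244 microRNA probes were higher and 26 lower by any amount, with a median difference of 0.11 and quartiles of 0.06 and 0.16. The 8939 other probes in their range of brightness had a median of 0.00 and quartiles of -0.07 and 0.07, so higher and lower ones were about equal in number. With normexp and quantile normalization the medians were 0.09 and 0.00, and 201 of the 244 were higher. Median scaling adds 1 constant to every difference and so cannot alter the gap. The median microRNA level was 1.00 on the untreated parental array, 1.08 on the IAA array and 1.06 and 1.11 on the OsTIR1 arrays without and with IAA. The untreated array was therefore the low one, and it stood farther from the OsTIR1 mean at 195 of the 244 probes (79.9%), beside 54.8% of all 19436 probes. The let-7 family differed by -0.05 to 0.21 over 18 probes, the mir-17-92 cluster by -0.11 to 0.46 over 12, and the blood cell microRNAs by -0.06 to 0.22.

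Of the 244 probes, 4 were at least 1.5-fold apart, and all 4 were past 2-fold (1.64%). Of all measured probes, 1.91% were past 1.5-fold and 0.472% past 2-fold, most of them dim. Of the 8939 other probes in the brightness range of the microRNA probes, 99.8% were within 1.5-fold, against 98.4% of the microRNA probes. Of those 8939, 13 were higher and 4 lower past 1.5-fold, and 3 and 1 past 2-fold. For each of the 4 microRNA probes the second probe of the same name did not move with it. One probe of mir-183, known from sensory cells, read 69.7 units without and 231 with IAA, a difference of 1.80 (1.38 to 2.22), while the second read 265 and 281 units and differed by 0.16. One probe of mir-148a read 126 and 405 units, a difference of 1.75 (1.35 to 2.16), while the second read 391 and 430 and differed by 0.21. At both, the OsTIR1 arrays lay with the IAA array, at 264 and 256 units for mir-183 and 397 and 382 for mir-148a, so the untreated parental array was the low one. The mir-148a spot lies in a crowded part of the surface, and 5 of the 35 measured spots within 8 rows and 2 columns of it were past 1.5-fold. The mir-183 spot lies outside the crowded parts, with 1 of 44 such spots past 1.5-fold. Median differences over these neighbouring spots were 0.02 for mir-148a and -0.05 for mir-183. Both spots lie in a strip of columns, 65 to 68, described with the array surface below.

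The lower pair showed the reverse arrangement. One probe of mir-206 read 509 units without and 233 with IAA, a difference of -1.06 (-1.46 to -0.65), and the second read 536 and 590 and differed by 0.21. One probe of mir-125b read 296 and 105 units, a difference of -1.42 (-1.84 to -1.01), and the second read 264 and 267 and differed by 0.08. The OsTIR1 arrays read 687 and 656 units for that mir-206 probe and 304 and 271 for that mir-125b probe, so here the IAA array was the low one. These 2 spots lie 5 rows and 1 column apart on an array of 532 rows and 85 columns. Over the measured spots within 8 rows and 2 columns of each, the median differences were -0.12 and -0.06. Past 1.5-fold were 4 of 41 such spots for mir-206 and 2 of 43 for mir-125b, each count including the other microRNA probe. In the part of the surface that holds both, 1.72% of measured probes were. mir-133b, the RefSeq neighbour of mir-206, differed by 0.00 and 0.02 over its 2 probes. Over the 114 names with 2 probes, the median gap between the differences of the 2 probes was 0.08, and no name had both past 1.5-fold. The 110 pairs without a probe past 1.5-fold had gaps of at most 0.45.

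**Figure D3:**
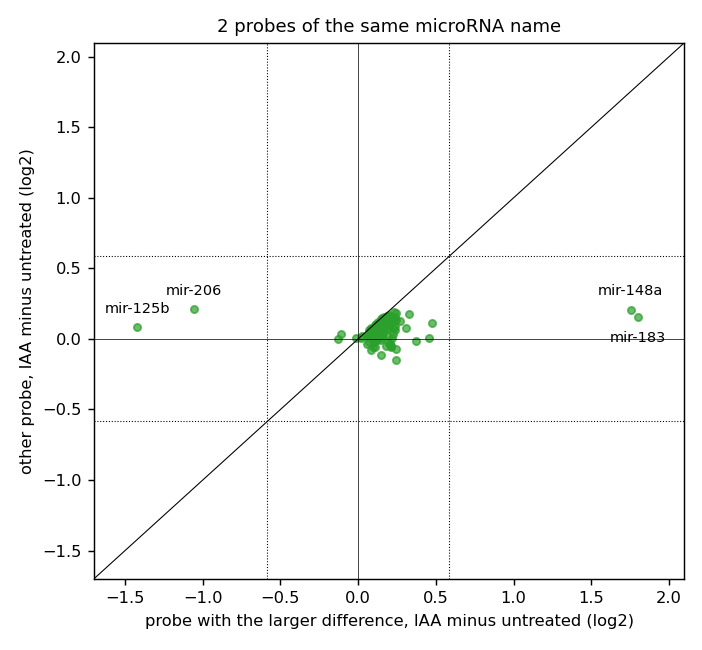
Difference with IAA (log2) of the 2 probes of each of 114 microRNA names, the probe with the larger difference on the x axis and the other on the y axis; dotted lines mark 1.5-fold and the diagonal marks equal differences. The points of mir-183, mir-148a, mir-206 and mir-125b lie past 1.5-fold on the x axis and between 0.08 and 0.21 on the y axis.

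The 2 OsTIR1 arrays showed which parental array stood apart in the 85 probes at least 2-fold apart that all arrays measured. The untreated array was farther from their mean in 65 of the 85 (76.5%, exact 95% interval 66.0% to 85.0%), against 54.8% of all 19436 probes. The intervals cover counting error only, and neighbouring spots are not independent. The arrays also differed in background. Negative control spots had a median signal of 39.0 units on the untreated and 30.5 on the IAA parental array. On the OsTIR1 arrays it was 25.5 without and 23.0 with IAA. Well above background were 20086 and 20967 probes on the parental arrays, and 24359 and 23306 on the OsTIR1 arrays. The part of background in these shares was not tested. Among the 60 lower probes it was the untreated array in 55, and among the 25 higher ones the IAA array in 15. Once the crowded parts were left out, it was the untreated array in 21 of 23 lower probes and the IAA array in 14 of 17 higher ones. At 1.5-fold on the same surface, it was the untreated array in 119 of 170 lower probes and the IAA array in 49 of 82 higher ones. That rest of the surface was itself uneven, as given below. Among the 9718 brighter probes, ranked by the mean of the 4 arrays, the untreated array stood apart in 11 of 13 probes at least 1.5-fold higher.

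**Figure D4:**
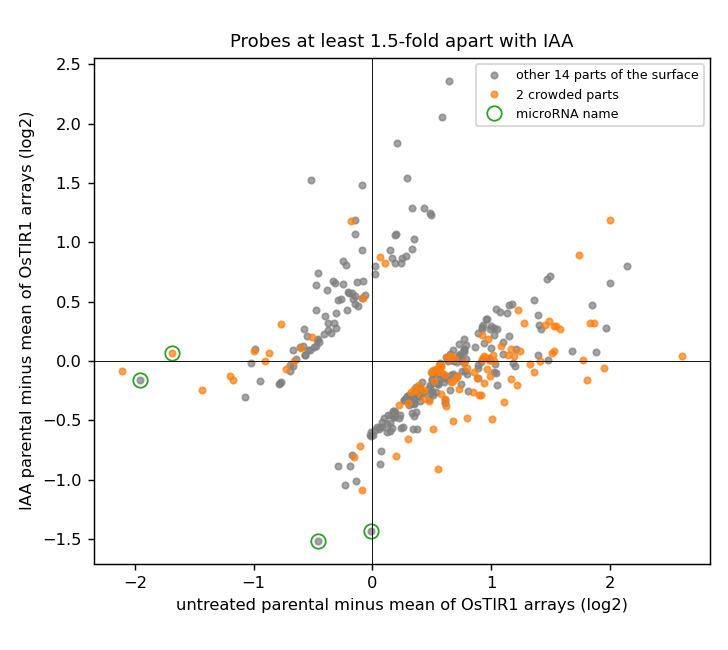
Each point is 1 of 359 probes at least 1.5-fold apart with IAA and well above background on all 4 arrays; the x axis is the untreated and the y axis the IAA parental array, each minus the mean of the 2 OsTIR1 arrays (log2). Orange points lie in the 2 crowded parts of the surface and green rings mark microRNA probes; points along the x axis are those where the untreated array stood apart, as for 246 of the 359.

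The IAA array lay beyond all 3 other arrays in few probes. It was at least 2-fold above each of them at 8 probes and at least 2-fold below each at 2, the mir-125b and mir-206 probes described above. The untreated array was at least 2-fold above the 3 others at 38 probes and below them at 6. Without the crowded parts these counts were 7 above and 2 below for the IAA array, and 15 and 1 for the untreated one. The 8 probes above have no gene name and read 49.5 to 108 units with IAA.

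At 1.5-fold the IAA array was above all others at 32 probes, of which 2 are among the 9718 brighter probes. Both are unnamed and were picked after their values were seen. Probe CV860576 read 544 units with IAA, against 295 without and 238 and 213 on the OsTIR1 arrays, a difference of 0.96 (0.55 to 1.36). Probe CR522998 read 694 units with IAA, against 392 without and 451 and 443 on the OsTIR1 arrays, a difference of 0.90 (0.49 to 1.30).

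Bright probes gave few differences. Of the 9718, 13 were at least 1.5-fold higher and 4 lower, and 4 and 2 at 2-fold. The largest differences among their unnamed probes were at CV862621, 871 units without and 3366 with IAA, and CR385442, 21776 and 44174 units, 4.06-fold and 2.13-fold higher after scaling. The OsTIR1 arrays read 3783 and 3443 units for CV862621 and 41312 and 41851 for CR385442, so the untreated parental array was the low one at both. CV862621 lies in a crowded part of the surface and CR385442 does not. The lowest were TC206915, 12743 units without and 6551 with IAA, and TC197992, 643 and 406 units, which differed by -0.89 and -0.59. For these the OsTIR1 arrays lay nearer the IAA array, at 5688 and 6607 units and at 467 and 410. TC197992 lies in a crowded part and TC206915 does not.

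Place on the array went with these differences. The 2 crowded parts held 12.2% of all probes, 47 of the 92 probes at least 2-fold apart and 109 of the 372 at 1.5-fold. In them 4.55% of measured probes were at least 1.5-fold apart, against 1.54% on the rest, where single parts ran from 0.83% to 3.15%. Without them 18 probes were 2-fold higher and 27 lower. The part at 3.15%, in the last rows and first columns, held 6 of these higher probes and 3 of the lower ones. At 1.5-fold that part held 28 higher and 10 lower probes, so the rest of the surface was not even. A narrower strip, columns 65 to 68 of 85, was seen among the bright probes after their values were known. It held 5.02% of the 9718 brighter probes and 8 of the 13 that were at least 1.5-fold higher, CV862621, the mir-148a probe, CV860576 and CR522998 among them. In 6 of the 8 the untreated array stood apart. Without the strip 5 bright probes were higher and 3 lower. The part of place in these differences was not tested further.

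**Figure D5:**
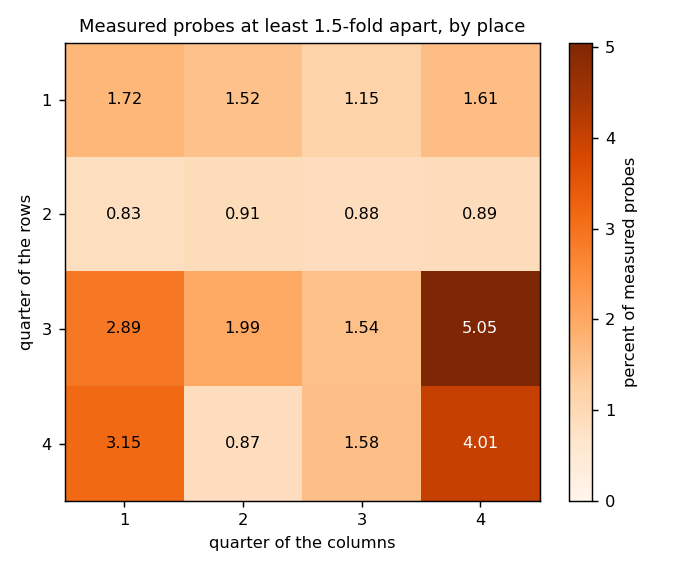
Percent of measured probes at least 1.5-fold apart with IAA in each of 16 parts of the array surface, 4 along the rows by 4 along the columns. The 2 crowded parts, at the end of the columns and the lower rows, stand at 5.05% and 4.01%, and the others at 0.83% to 3.15%.

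Probes measured on 1 parental array only have a bound in place of a difference. On the untreated array only, 594 probes were well above background, and 367 of these (61.8%) had a bound of at least 2-fold. On the IAA array only, 1475 were, and 84 (5.69%) had such a bound. Of the 367, 259 lie in the crowded parts, and of the 84, 6 do. Without these parts the counts were 108 and 78. The flag for well above background was reached from 14.3 units on the untreated and from 10.4 on the IAA array, so dimmer probes could pass on the IAA array. On the level scale these floors were -3.62 and -4.01. A dim spot under its floor is set to that floor, so the same level gave a larger bound on the untreated array. The 2 shares, 61.8% and 5.69%, are therefore unequal in part by construction. AVPR2 is the one named gene among the 594, and the 1475 hold 0.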

How the data were processed

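The authors deposited 1 Agilent Feature Extraction 10.5.1.1 file per array, with spot intensities in 1 colour (Cy3) made from total RNA, per the file headers. The processed intensity is background-subtracted and detrended over the surface, per the file headers, and is not scaled between arrays. The headers name galGal2 as the build of the grid, and no coordinates were used. The deposited series-level table held the same intensity values times 1 constant per array (4.40 and 4.63 for the parental arrays, without and with IAA). Its column medians there were 65.6 and 58.8. The reason for the constants is unknown. Each array has 43451 spots, of which 1417 controls were left out. No spot was flagged by the software as saturated or non-uniform, and no probe as a population outlier. Each flag was set within 1 array, so it does not bear on spots that differ between arrays.

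Levels are log2 intensity minus the array's 75th percentile over 42034 probes. Of 66 probes with a RefSeq accession, 51 matched a RefSeq gene table (GRCg7b), from which names and neighbours were taken. Counts took probes well above background on both parental arrays. Named were genes with a symbol, microRNA probes at 1.5-fold with their partners, and 2 higher and 2 lower unnamed bright probes. Beyond that rule, some microRNAs under 1.5-fold were named for their family, level or neighbour. The unnamed bright probes CV860576 and CR522998 were added after their values were seen. For bounds, the dim side is the higher of the spot and the lowest measured level on its array. With 1 array per group no test was run. Python 3.11.15, R 4.3.3 and limma 3.58.1 were used, and the fold rule was run on simulated data with known changes. The simulated noise was normal and independent of place, so it does not bear on single outlying spots or on the crowded parts. Normexp (offset 50) took spot medians, since mean signals are not in the files as used here. Members and lists were chosen with earlier results of these data known. Of the 22 measured genes, 1 enters the counts and is not reported by name here.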

Additional observations from a re-analysis of the deposited data

How the results depend on the processing

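No paired analysis was possible because each group is 1 array with no replicate number in the labels, and none could be left out in turn. Of 55 counts and shares under other settings, 31 stayed within 1.5 times the reported count or inside the interval of the share. The others follow, in the order 2-fold higher, 2-fold lower, 1.5-fold higher and 1.5-fold lower. Normexp gave 5, 2, 21 and 10. No filter on detection gave 870, 2221, 1796 and 3829. The brighter probes of the parental arrays gave 4, 1, 12 and 3, beside fewer probes tested. Median scaling gave 39 lower at 2-fold, and 246 higher and 137 lower at 1.5-fold. Quantile normalization gave 153 higher and 178 lower at 1.5-fold. Without the crowded parts, 27 were lower at 2-fold and 180 at 1.5-fold, beside fewer probes tested. Without columns 65 to 68, chosen after seeing the data, 5 of the bright probes were at least 1.5-fold higher in place of 13. Bounds of at least 2-fold numbered 108 on the untreated array without the crowded parts, and 137 on the IAA array with median scaling. The untreated array stood apart in 85.7% of 7 probes with normexp and 60.0% of 40 without the crowded parts. Median scaling adds 1 constant to every difference, so its counts moved by construction. No filter on detection adds probes not well above background on both parental arrays. Normexp adds 50 units to each spot, beside medians of 49.4 units without and 24.3 with IAA for the 92 probes past 2-fold. How far this alone lowered the normexp counts was not tested, nor was the cause with quantile normalization. Of 155 values of named genes and probes, 153 moved by less than the half-width of the interval of the 2 spots. That half-width was about 0.40 or more, a lax limit for the named genes, which differed by at most 0.23 except for CHRM4. The mir-125b probe, at -1.42 and with normexp at -1.02, was counted among the 153. The other 2, both with normexp, were CHRM4 at -0.40 and the mir-183 probe at 1.20. For median scaling and the deposited series-level values this was fixed in advance, since each shifts all differences by about 1 small constant. No value past 1.5-fold changed sign. Changes of sign in smaller differences were not counted, such as EXOSC10, at -0.12 and with median scaling at 0.04. Signal limits the dim probes, whose intervals were wider, with a median half-width of 0.57 in the dimmest 4873 probes against 0.40 in the brightest 4873.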
